A study of Homo sapiens with 27 samples.

Results

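Caco2 cells that had survived repeated attack by natural killer (NK) cells and cetuximab were compared with parental Caco2 cells. The comparison takes every array that the labels call resistant and every array that they call parental for this line. These are 6 of the 27 arrays of the study, 3 per group, and the deposited values of 17687 named genes were compared between them.

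Caco2 is an established human colorectal carcinoma line that can take on features of small-intestinal enterocytes in culture. Parental cells were the untreated line, grown from a single clone in Eagle's medium with fetal bovine serum. Resistant cells were those left after 20 cycles in which 1000000 tumour cells in a 10 cm dish received 1000000 NK-CD16 cells and cetuximab at 1 ug per ml. Withdrawal cells, the other Caco2 state, were resistant cells kept for 20 more cycles without the challenge, and their 3 arrays are given as values beside the others. The lines LIM1215 and SW48 were taken through the same 3 states. All arrays were hybridised with material made from 250 ng of total RNA of cell pellets. Nothing in the labels tells whether replicates were grown as separate cultures, so p-values measure only the spread between these arrays, which may be technical. The labels also do not say whether NK cells were removed before RNA was taken.

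Cetuximab binds the epidermal growth factor receptor (EGFR) on the tumour cell, and its Fc part engages CD16 on the NK cell, which then releases perforin and granzymes. NK cells also read stress-induced ligands, such as the MIC and ULBP proteins, as signals to kill, and HLA class I molecules as signals to spare. Activated NK cells secrete interferon gamma, which signals through JAK kinases and raises antigen presentation, while type I and type III interferons act through a transcription complex that holds IRF9 and raise antiviral genes.

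Differences are given as resistant minus parental in log2 units of the deposited scale. They are not turned into linear folds, because the largest values (18.33 to 18.78 on Caco2 arrays) exceed 16, the log2 of the largest reading of a 16-bit scanner. The background limit of an array was the 95th percentile of its 612 negative controls, which averaged 7.76 on parental and 7.88 on resistant arrays. A gene is called near background where both group means lie at or below that limit. Where only the lower group lies below it, the change is a difference of deposited values, and "at least" gives the distance from the higher group's mean to the limit in the lower group. On Caco2 arrays 43.4 to 47.7% of genes lay above the limit. Precision is limited by the number of arrays. Replicates of a Caco2 group correlated with r of 0.99465 to 0.99624 across genes, which are not independent replicates.

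Resistant Caco2 cells differed from parental cells at 4756 of 17687 genes (26.9%) with limma's moderated test, at an adjusted p under 0.05 after Benjamini-Hochberg correction over all genes. Of these, 2274 (12.9%) were higher and 2482 (14.0%) were lower. At 1933 of them the difference was 1 log2 unit or more, 1075 higher and 858 lower. The median change over all genes was -0.03. The 3 resistant arrays lay wholly above or below the 3 parental ones at 7053 genes (39.9%). In all, 257 genes rose from below background and 323 fell to below it. Another 1286 called genes were near background in both groups, and their differences are differences of deposited values only.

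The 10 largest rises were those of IFIT1, IFI6, XAF1, OAS2, IFITM1 and OAS1, which are interferon-induced, the chemokines CCL3 and CCL5, APOL1, an interferon-inducible apolipoprotein, and the complement protein C3. Their deposited values differed by 6.87 (OAS1) to 9.59 (IFIT1). The 10 largest falls were those of VCAN, GABRA3, RBMS3, WLS, MGST1, NIBAN1, PLOD2, NCKAP5, LRP2 and STK32B, from -8.15 (VCAN) to -4.98 (STK32B). These 20 genes were taken among genes above background in the higher group whose groups did not overlap. Every riser was below the background limit in parental cells, and every faller was below it in resistant cells, so the order among them is one of deposited values only. Measured to the limit, the rise of IFI6 was at least 6.05 and that of IFIT1 at least 4.87.

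**Figure D1:**
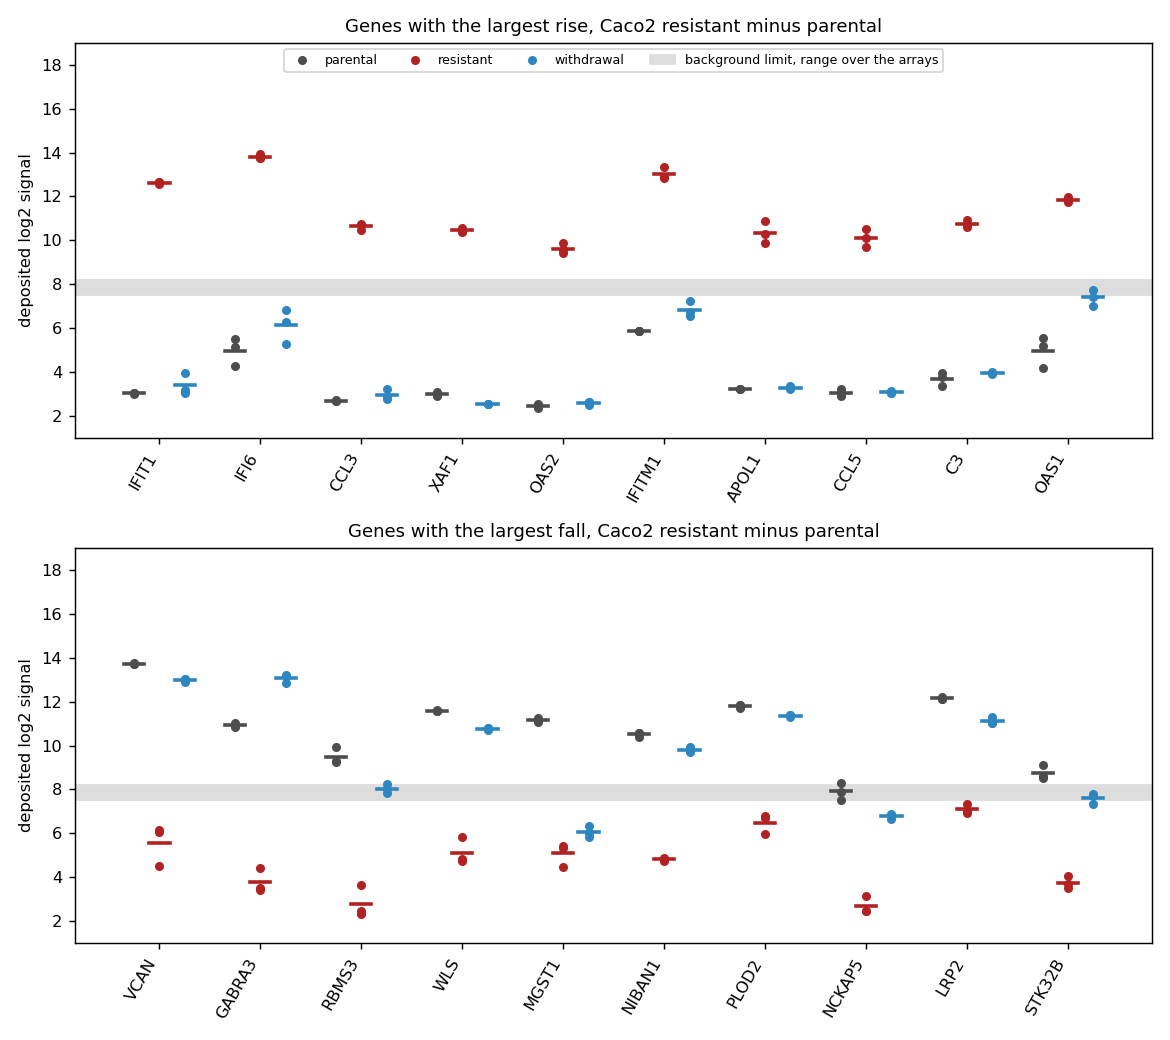
Deposited log2 signal of the 10 genes with the largest rise and the 10 with the largest fall on each Caco2 array, with a point per array and a bar at each group's mean for parental, resistant and withdrawal cells. The grey band is the range of the arrays' background limits, and for each gene the resistant mean lies on the other side of it from the parental mean, except that the parental mean of NCKAP5 lies inside it.

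Transcripts of NK cells were measured on the resistant arrays and are described first, because they move with the groups that follow. Of 32 measured NK cell markers, 26 rose and 0 fell (median change 2.67, against -0.03 over all genes). In parental cells 1 of the 32 was above background (IL2RG, the shared gamma chain of interleukin receptors), against 13 in resistant and 1 in withdrawal cells. The mean level of the list was 3.59 to 3.79 on parental, 6.79 to 7.10 on resistant and 3.60 to 3.66 on withdrawal arrays.

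PTPRC, the leukocyte surface phosphatase CD45, read 2.31, 2.43 and 2.62 on parental arrays, 9.33, 9.27 and 9.16 on resistant arrays and 2.47, 2.50 and 2.06 on withdrawal arrays. Its change was 6.80 (SE 0.149, adjusted p = 5.03e-09), at least 1.50 past background. The parental and resistant arrays did not overlap, and the withdrawal arrays lay at the parental level. The chemokine CCL3 read 2.74, 2.69 and 2.69 on parental against 10.72, 10.49 and 10.70 on resistant arrays, a change of 7.93 (SE 0.142, at least 2.88 past background). CCL5 read 2.94, 2.92 and 3.25 against 9.71, 10.09 and 10.54, a change of 7.08 (SE 0.196, at least 2.36 past background). NK cells make both chemokines, and interferon can raise CCL5 in epithelial cells. GZMA, a granzyme, rose by 6.47 (SE 0.28, at least 1.31 past background) and CST7, an inhibitor of granzyme-processing proteases, by 6.03 (SE 0.2, at least 1.32 past background). FCGR3A, which encodes CD16, read 2.90, 2.61 and 2.44 on parental and 7.52, 6.72 and 6.85 on resistant arrays and was near background in both; it was chosen after its values were seen. In bulk samples, fewer cells of a type and less RNA per cell cannot be told apart.

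Markers of other leukocytes were examined in the same way. T cell markers rose at 6 of 12 genes and fell at 0, and of those only CD3E, at 8.31, 7.87 and 7.68 on resistant arrays, was above background. B cell markers rose at 0 of 7 genes, and BANK1 fell by 0.95 near background. In the myeloid list 5 of 13 genes rose and 1 fell, which was VCAN. LYZ, the antibacterial enzyme lysozyme, which epithelial cells can also make, read 8.98, 8.80 and 8.81 in parental, 13.45, 13.38 and 13.35 in resistant and 11.14, 11.21 and 10.86 in withdrawal cells (change 4.53, SE 0.126). Of 11 fibroblast and endothelial markers 2 rose (PDGFRB and PECAM1) and 0 fell, against 12.9% higher and 14.0% lower among all genes. PECAM1 lost its call when any 1 of 6 of the 9 Caco2 arrays was left out.

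The labelled cell type was checked on 13 measured markers of colon epithelium, of which 9 were above background in parental and 9 in resistant cells. CDX2, an intestinal transcription factor, read 13.10 ± 0.0752 in parental and 12.87 ± 0.0951 in resistant cells (SD, n = 3), and its change of -0.22 did not pass (adjusted p with limma 0.237). VIL1, ELF3 and MUC13 rose and TSPAN8 fell. EPCAM, CDH1 and KRT8, chosen after their values were seen, did not pass, with changes of -0.12, 0.14 and 0.11. LGALS4 and PHGR1, chosen likewise, were near background in both groups. How much of any change came from NK cell RNA in the resistant pellets was not tested.

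Antiviral genes of the interferon response rose together. Of 49 measured type I interferon effectors, 43 rose and 1 fell (median change 3.11), and 16 were above background in parental cells against 35 in resistant and 14 in withdrawal cells. The gene that fell was PNPT1, a mitochondrial RNA-processing enzyme (-0.41), chosen after its value was seen. The mean level of the list was 6.19 to 6.31 on parental, 9.76 to 9.79 on resistant and 6.37 to 6.44 on withdrawal arrays. NK markers were high on the same resistant arrays, and their part in the result was not tested.

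The promoters of 4 of these genes are shown because they hold matches to the core of the interferon-stimulated response element, the sequence that the complex holding IRF9 binds. Each run is the 250 bases before the RefSeq start site in GRCh38.p14, read 5′ to 3′ on the gene's strand. Capitals mark every match, on either strand, of GAAA, any 2 bases and GAAA. ISG15, a ubiquitin-like modifier, and OAS3 were chosen after their values were seen. The runs lie at chr10:89392373-89392622 (plus strand) for IFIT1, chr1:27672193-27672442 (minus strand) for IFI6, chr1:1013247-1013496 (plus strand) for ISG15 and chr12:112938224-112938473 (plus strand) for OAS3.
IFIT1: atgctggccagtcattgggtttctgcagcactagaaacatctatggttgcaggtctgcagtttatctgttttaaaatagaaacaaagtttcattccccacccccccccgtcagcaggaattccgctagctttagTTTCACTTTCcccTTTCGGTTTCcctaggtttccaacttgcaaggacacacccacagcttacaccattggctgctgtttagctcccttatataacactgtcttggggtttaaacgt
IFI6: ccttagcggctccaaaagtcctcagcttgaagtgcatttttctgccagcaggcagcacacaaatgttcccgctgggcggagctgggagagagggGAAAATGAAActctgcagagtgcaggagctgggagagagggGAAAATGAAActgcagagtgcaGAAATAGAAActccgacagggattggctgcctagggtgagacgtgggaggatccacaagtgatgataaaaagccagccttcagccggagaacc
ISG15: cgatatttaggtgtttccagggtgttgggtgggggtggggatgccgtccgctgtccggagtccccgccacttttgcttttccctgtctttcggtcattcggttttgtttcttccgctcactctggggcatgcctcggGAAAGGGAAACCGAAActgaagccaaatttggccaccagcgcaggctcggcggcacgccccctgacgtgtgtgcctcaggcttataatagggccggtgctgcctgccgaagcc
OAS3: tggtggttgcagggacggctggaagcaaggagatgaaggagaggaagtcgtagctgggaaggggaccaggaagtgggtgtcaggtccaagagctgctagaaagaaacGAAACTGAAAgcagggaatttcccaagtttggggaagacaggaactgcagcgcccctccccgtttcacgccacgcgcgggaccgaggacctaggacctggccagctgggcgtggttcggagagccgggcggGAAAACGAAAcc

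IFIT1 held 2 matches, IFI6 3, ISG15 2 and OAS3 2, counting overlapping matches separately. XAF1 and OAS1 held 0 in their windows, and 3 of the 15 genes with the largest changes that had a window held a match. In windows of 250 bases before to 50 bases after the start, the motif was found for 28 of 40 effector genes with a window (70%), against 4.38% of 27305 genes. It was found for 9 of 13 interferon gamma response genes, 10 of 15 HLA class I presentation genes and 0 of 16 genes of liver-type secreted proteins. The gamma-activated site, TTC, any 3 bases and GAA, was found on either strand for 11 of 40 effector genes, 6 of 13 interferon gamma response genes, 2 of 15 HLA class I presentation genes, 3 of 16 liver-type genes and 9.38% of all genes. A match describes the letters of the window and shows no binding.

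IFIT1, which binds foreign RNA, read 3.07, 3.04 and 2.99 on parental, 12.64, 12.66 and 12.57 on resistant and 3.05, 3.98 and 3.21 on withdrawal arrays. Its change was 9.59 (SE 0.211, adjusted p = 5.03e-09 with limma), at least 4.87 past background. IFI6, a membrane protein that limits viral replication, read 4.28, 5.14 and 5.52 on parental, 13.74, 13.75 and 13.92 on resistant and 5.27, 6.83 and 6.28 on withdrawal arrays, a change of 8.83 (SE 0.394), at least 6.05 past background. The withdrawal arrays of both genes were all below background, and only the resistant arrays were high.

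XAF1, a pro-apoptotic partner of XIAP, read 3.09, 2.93 and 2.94 in parental and 10.57, 10.40 and 10.44 in resistant cells (7.48, SE 0.106, at least 2.72 past background). IFITM1, which blocks viral entry at membranes, read 5.88, 5.89 and 5.86 against 12.88, 12.85 and 13.35 (7.14, SE 0.197, at least 5.27 past background). The oligoadenylate synthetases, which activate the antiviral nuclease RNase L, rose by 7.15 (OAS2, SE 0.136, at least 1.87 past background) and 6.87 (OAS1, SE 0.318, at least 4.09 past background). OAS1 read 5.20, 5.55 and 4.18 on parental, 11.80, 11.99 and 11.73 on resistant and 7.43, 7.75 and 7.02 on withdrawal arrays. ISG15 rose by 6.20 (SE 0.165, at least 4.15 past background) and OAS3 by 6.71 (SE 0.229, at least 5.03 past background). None of these genes had overlapping parental and resistant arrays.

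Not every antiviral gene followed. MX1, which traps viral nucleocapsids, read 3.00, 2.77 and 4.62 on parental and 5.18, 3.04 and 3.50 on resistant arrays, near background, and its change of 0.45 did not pass (adjusted p with limma 0.659). IFI44 and IFI44L were likewise near background in both groups, with changes of 0.22 and -0.06 that did not pass. These 3 genes were chosen after their values were seen.

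Sensors and signalling genes upstream of these effectors also rose. Nucleic acid sensors and adaptors rose at 9 of 16 genes and fell at 0 (median 0.88). The RNA sensor IFIH1 (MDA5) read 3.01, 2.89 and 3.27 against 9.65, 9.66 and 8.93 (6.36, SE 0.201, at least 1.66 past background), and RIGI rose by 3.29 (SE 0.169, at least 2.72 past background). The DNA sensor IFI16 rose by 6.27 (SE 0.152, at least 1.12 past background), DHX58, a regulator of both RNA sensors, by 3.55 and the transcription factor IRF7 by 1.99, both near background.

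Among interferons, receptors and JAK-STAT genes, 13 of 22 rose and 0 fell. IRF9, the DNA-binding subunit of the type I interferon transcription complex, read 6.58, 6.62 and 6.35 in parental, 12.35, 12.05 and 12.29 in resistant and 7.13, 7.80 and 6.65 in withdrawal cells (5.71, SE 0.25, at least 4.47 past background). USP18, a feedback inhibitor of the type I receptor, rose by 4.53 (at least 1.78) and IRF1, a main interferon gamma target, by 3.36 (at least 2.97). IFNLR1 and IL10RB, the chains of the type III interferon receptor, rose by 1.32 (at least 0.52) and 1.49 (at least 0.75).

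The interferon gamma response rose at 20 of 24 genes and fell at 0 (median 1.56). Only 9 of the 20 genes that rose were above background on resistant arrays. The other rises are differences of deposited values only. Of the 24 genes, 4 lay above the background limit before the challenge and 10 after it. APOL1 read 3.25, 3.22 and 3.25 on parental and 10.27, 10.90 and 9.89 on resistant arrays (7.11, SE 0.216, at least 2.60 past background). CXCL9, a chemokine for activated lymphocytes, rose by 5.34 (SE 0.278, at least 0.93 past background), from 2.83 to 3.74 on parental to 8.37 to 8.86 on resistant arrays. GBP1 and GBP2, interferon-induced GTPases, rose by 5.05 (at least 0.92) and, near background, 5.18, and APOL2 rose by 5.15 (at least 2.57). The mean level of the list was 5.08 to 5.11 on parental, 7.44 to 7.47 on resistant and 5.06 to 5.15 on withdrawal arrays.

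Antigen presentation through HLA class I rose at 17 of 18 genes and fell at 0 (median 2.28). B2M, the invariant light chain of class I, read 13.36, 13.11 and 13.31 in parental, 15.64, 15.61 and 15.92 in resistant and 13.59, 13.60 and 13.56 in withdrawal cells (2.46, SE 0.125, adjusted p = 6.37e-07 with limma). HLA-E, the ligand of the inhibitory receptor NKG2A, read 11.11, 11.07 and 11.04 against 13.27, 13.20 and 12.93 (2.06, SE 0.121). HLA-C, a ligand of inhibitory KIR receptors, rose by 2.75 (SE 0.267, at least 0.42 past background). The resistant arrays lay above the parental ones for these 3 genes without overlap.

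Genes that make and load peptides also rose. PSMB9, an immunoproteasome subunit, rose by 6.76 (SE 0.274, at least 2.88 past background), TAP1 and TAP2, the subunits of the peptide transporter, by 5.99 (at least 0.85) and 5.33 (at least 1.76), and ERAP2, which trims peptides, by 4.91 (at least 2.26). PSMB8, another immunoproteasome subunit, rose by 4.36 near background. The mean level of the class I list was 7.71 to 7.79 on parental, 10.52 to 10.66 on resistant and 7.69 to 7.79 on withdrawal arrays. NK cells also express HLA class I and immunoproteasome genes, and the part of the NK markers' rise in these values was not tested.

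HLA class II presentation rose at 3 of 12 genes and fell at 0 (median -0.08), against 12.9% higher and 14.0% lower among all genes. CD74, the class II chaperone, read 6.55, 6.39 and 7.05 against 12.20, 12.21 and 11.90 (5.44, SE 0.23, at least 4.35 past background). CTSS, a protease that trims CD74, rose by 6.09 (SE 0.289, at least 2.19 past background), and CIITA, the class II master regulator, by 0.53 near background (adjusted p with limma 0.0466), a call lost without any 1 of 7 of the 9 Caco2 arrays. HLA-DRA, chosen after its values were seen, read 2.32, 2.31 and 2.49 on parental and 2.10, 2.11 and 2.28 on resistant arrays and did not pass (adjusted p with limma 0.443). Its change was 10.47 in LIM1215 and 7.71 in SW48, and the Caco2 change differed from each (adjusted p with limma 1.88e-16 and 2e-14).

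**Figure D2:**
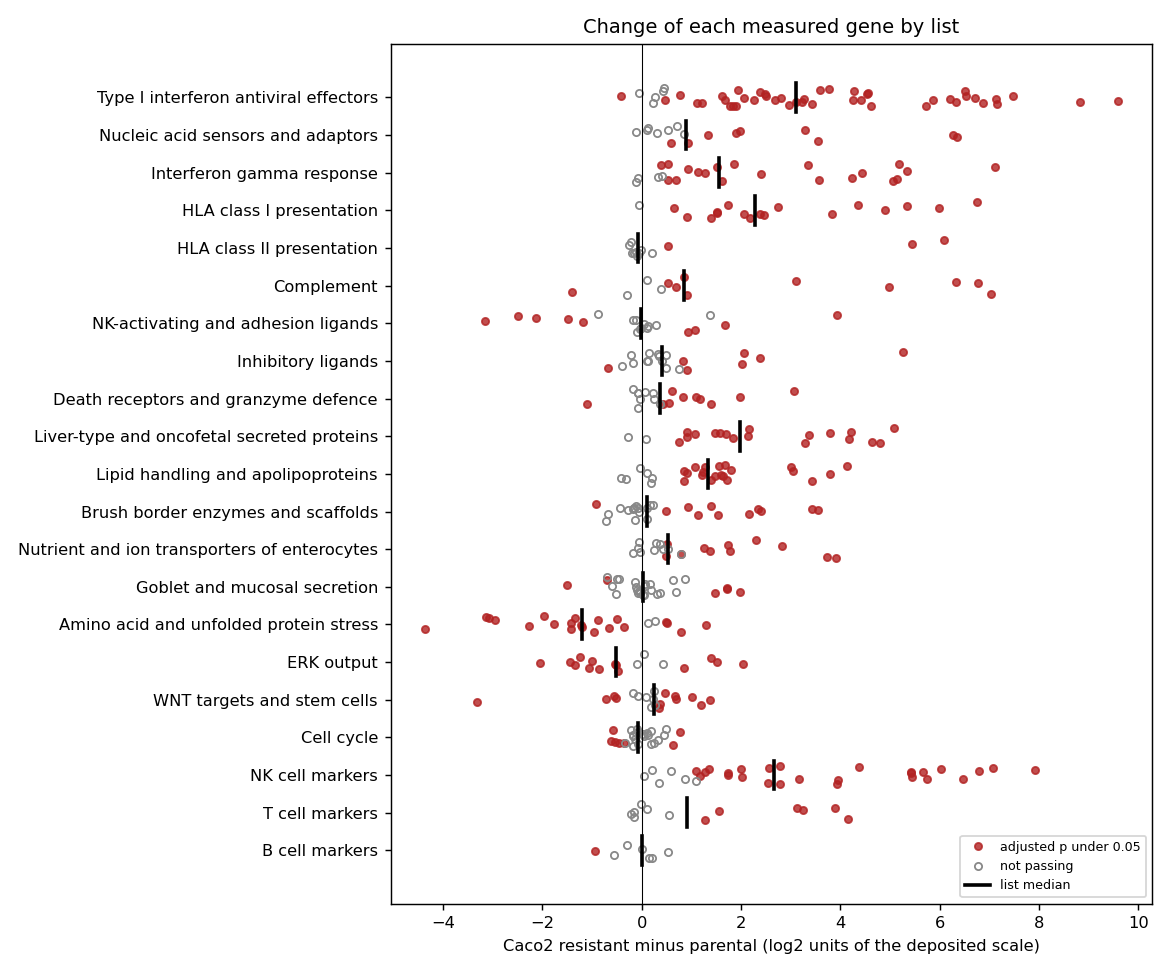
Change of each measured gene, resistant minus parental Caco2, in log2 units, by gene list. Filled points passed at an adjusted p under 0.05, open points did not, and bars are list medians, which reach 3.11 for type I interferon effectors and -1.20 for amino acid and unfolded protein stress.

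Of 20 NK-activating and adhesion ligands, 5 fell and 4 rose (median -0.02). Among all genes 14.0% fell and 12.9% rose, and among genes above background 21.9% and 18.9%. Only 9 of the 20 were above background in parental and 6 in resistant cells, so the latter shares do not apply to all 20. The called genes above background in the higher group were the 5 that fell and ICAM1. Whether the list as a whole differed from other genes was not tested. The ones that fell were ligands of the activating receptors NKG2D and NKp30. ULBP1, a ligand of NKG2D, read 8.47, 8.49 and 8.34 on parental, 5.08, 5.14 and 5.60 on resistant and 7.83, 7.64 and 7.36 on withdrawal arrays. Its change was -3.16 (SE 0.172, adjusted p = 9.7e-07 with limma), at least 0.55 down to background. MICB, another NKG2D ligand, read 10.09, 10.30 and 10.23 against 8.04, 8.52 and 7.64 (-2.14, SE 0.264). The parental and resistant arrays did not overlap for either. ULBP2 and ULBP3 fell by 1.48 and 1.19 (at least 0.35).

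NCR3LG1, the ligand of NKp30, read 11.99, 11.93 and 11.76 in parental, 9.50, 9.61 and 9.12 in resistant and 10.67, 10.86 and 10.85 in withdrawal cells (-2.48, SE 0.149, adjusted p = 1.76e-06 with limma). Its withdrawal arrays lay between the groups without overlap. PVR and NECTIN2, ligands of the activating receptor DNAM-1, changed by -0.09 and -0.17 and did not pass (adjusted p with limma 0.605 and 0.342). MICA changed by -0.11 (adjusted p with limma 0.652) and CD58, the ligand of CD2, by 0.05 (adjusted p with limma 0.892). ICAM1, which binds the leukocyte integrin LFA-1, rose by 0.93 (SE 0.156). SLAMF7, CD48 and CLEC2B rose near background, and NK cells express SLAMF7 and CD48 themselves.

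EGFR, the target of cetuximab, read 9.93, 9.53 and 9.82 in parental, 8.61, 8.38 and 8.72 in resistant and 9.93, 9.68 and 9.60 in withdrawal cells. The change was -1.19 (SE 0.153, adjusted p = 0.000325 with limma), and every resistant array lay below every parental array. In the ErbB list 2 of 13 genes rose and 2 fell, close to the 12.9% higher and 14.0% lower among all genes. The receptor ERBB3 rose by 0.50 (adjusted p with limma 0.0171), the feedback inhibitor ERRFI1 by 0.34 (adjusted p with limma 0.0418), and the ligand NRG1 fell by 2.99 near background. Leaving out any 1 of the 9 Caco2 arrays ended the call of ERRFI1 (adjusted p with limma up to 0.124), and leaving out parental replicate 1, parental replicate 2 or resistant replicate 1 ended that of ERBB3 (0.0542 to 0.0568). ERBB2 and AREG were not analysed here.

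Among inhibitory ligands 6 of 19 rose and 1 fell, against 12.9% higher and 14.0% lower among all genes. CEACAM1, an adhesion molecule that restrains lymphocytes by binding CEACAM1 on them, read 9.44, 9.17 and 9.63 in parental, 14.60, 14.83 and 14.60 in resistant and 10.42, 10.41 and 10.49 in withdrawal cells (5.27, SE 0.139, adjusted p = 1.42e-08 with limma). LGALS9, a galectin that binds TIM-3, rose by 2.02, HLA-F by 2.37 and HLA-G by 0.92, all 3 near background. NECTIN3 fell by 0.67. CD274, which encodes PD-L1, changed by 0.41, near background, and did not pass (adjusted p with limma 0.136), but it passed without resistant replicate 1 (0.0389).

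**Figure D3:**
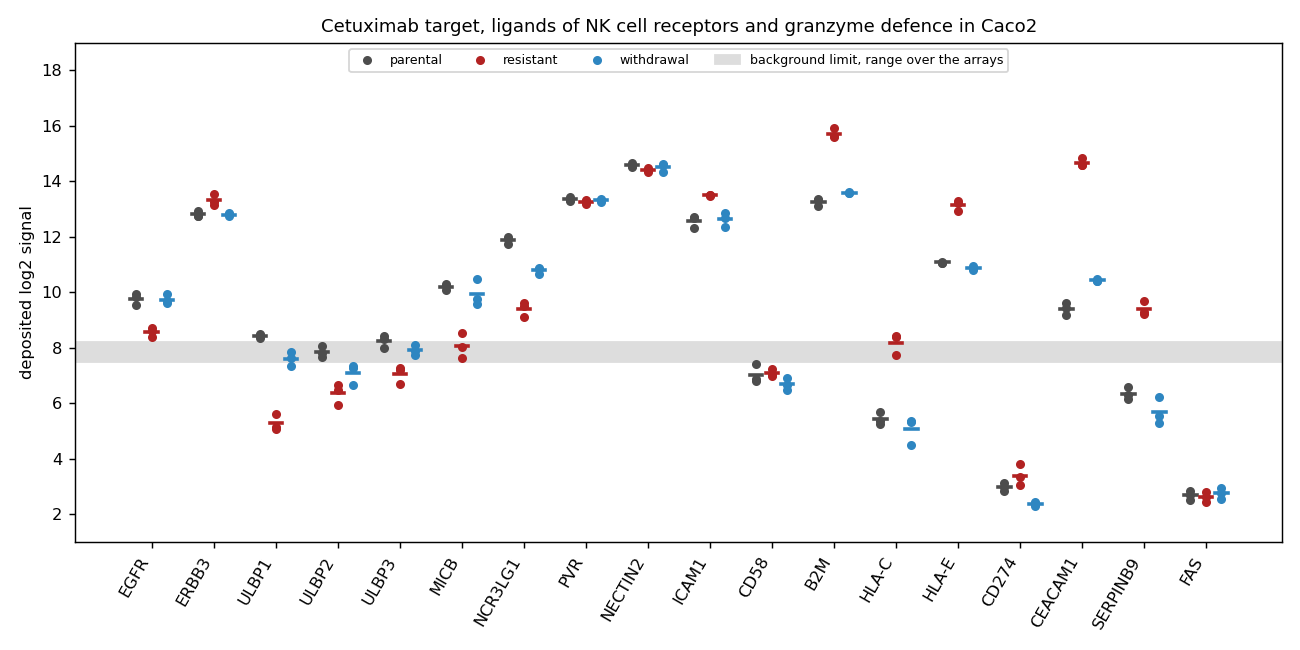
Deposited log2 signal of EGFR, ligands of NK cell receptors and genes of granzyme defence on each Caco2 array, with the mean of each group as a bar and the range of the background limits in grey. ULBP1, MICB, NCR3LG1 and EGFR are lower and B2M, HLA-E, CEACAM1 and SERPINB9 higher on resistant than on parental arrays.

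The list of death receptors and granzyme defence holds genes that carry out killing as well as genes that block it. It rose at 9 of 19 genes and fell at 1, against 12.9% higher and 14.0% lower among all genes. SERPINB9, the inhibitor of granzyme B, read 6.57, 6.29 and 6.16 in parental, 9.23, 9.69 and 9.29 in resistant and 6.24, 5.29 and 5.54 in withdrawal cells (3.06, SE 0.241, adjusted p = 1.08e-05 with limma), at least 1.65 past background. The groups did not overlap, and NK cells express SERPINB9 too. XIAP, which inhibits caspases, rose by 1.98 (SE 0.107), TNFAIP3, a brake on NF-kappaB, by 1.39 and CASP10, an initiator caspase, by 1.16 near background. The decoy receptor TNFRSF10D fell by 1.11. The death receptor FAS was near background in both groups (-0.07, adjusted p with limma 0.804). Inflammatory caspases and gasdermins rose at 5 of 11 genes (GSDMB, IL18, CARD16, CASP1 and GSDMD), all near background, and 3 to 5 rose with 1 array left out, fewest without parental replicate 2 or resistant replicate 1.

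Complement genes rose at 9 of 13 measured genes and fell at 1 (median 0.85). C3, the central component, read 3.37, 3.96 and 3.79 on parental, 10.94, 10.67 and 10.61 on resistant and 4.03, 3.95 and 3.91 on withdrawal arrays (7.03, SE 0.163, at least 2.99 past background, adjusted p = 7.16e-09 with limma). C2, a protease of the classical pathway, read 7.06, 5.71 and 6.50 against 13.42, 13.22 and 12.94 (6.77, SE 0.286, at least 5.44 past background). The resistant arrays were far above the parental ones for both. The classical pathway proteases C1S and C1R rose by 6.33 (at least 5.26) and 4.97 (at least 0.57), and CFB of the alternative pathway by 3.11. CD55, which protects cells from complement, fell by 1.41 (SE 0.106) and was chosen after its value was seen. In the list of NF-kappaB targets and chemokines 9 of 23 genes rose, led by CCL5, the chemokine CCL20 (2.79) and the cytokine IL32 (1.95), and 1 fell, CXCL5 (-0.80, near background).

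Listed output genes of ERK signalling, which lies downstream of EGFR, fell at 10 of 17 genes and rose at 4 (median -0.52). The list leaves out early-response genes such as FOS, JUNB, EGR3 and DUSP1. These were picked because they were high in resistant cells and are given under the other observations, so the list does not stand for all such output. SPRY2, a feedback inhibitor of receptor signalling, read 9.21, 8.55 and 8.83 in parental, 6.85, 6.99 and 6.60 in resistant and 7.97, 8.02 and 8.38 in withdrawal cells (-2.05, SE 0.193, at least 0.98 down to background, adjusted p = 3.99e-05 with limma). The ETS factor ETV5 fell by 1.45 (SE 0.144). The genes that rose were IER3 (2.04, SE 0.147), the phosphatase DUSP5 (1.52), EGR1 (1.39) and FOSL1 (0.85). Whether the falls or the rises came from a change in ERK signalling was not tested.

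Secreted proteins typical of liver and fetal gut, which Caco2 cells make, rose at 18 of 20 measured genes and fell at 0 (median 1.98). HP, haptoglobin, read 5.64, 5.56 and 4.97 on parental, 10.12, 10.72 and 10.56 on resistant and 6.06, 6.57 and 6.40 on withdrawal arrays (5.08, SE 0.225, at least 2.71 past background, adjusted p = 2.62e-07 with limma). ALB, serum albumin, read 12.26, 12.37 and 12.05 against 16.25, 16.48 and 16.46 (4.17, SE 0.125), with 12.70, 12.60 and 12.72 after withdrawal. SERPINA1, the inhibitor of neutrophil elastase, read 11.44, 11.54 and 11.59 against 15.78, 15.80 and 15.66 (4.22, SE 0.106), with 13.42, 13.44 and 13.32 after withdrawal. The withdrawal arrays of ALB and SERPINA1 lay between the groups, and those of HP were below background like the parental ones. ORM1, an acute-phase glycoprotein, rose by 4.64 and PROC, the anticoagulant protein C, by 4.79 (at least 2.64). In parental cells 15 of the 20 genes were already above background.

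Genes of lipid handling rose at 20 of 26 and fell at 0 (median 1.33). APOC3, an apolipoprotein that slows triglyceride clearance, read 10.27, 9.37 and 9.43 in parental, 13.69, 13.83 and 13.94 in resistant and 11.82, 11.67 and 11.64 in withdrawal cells (4.13, SE 0.219). APOA4, an apolipoprotein of enterocytes, rose by 3.42 (at least 2.43), MOGAT3 and MOGAT2, enzymes of triglyceride synthesis, by 3.04 (at least 1.96) and, near background, 3.79, and CREB3L3, a transcription factor of lipid metabolism, by 3.01 (at least 1.44).

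Genes of the mature enterocyte were counted by function. Brush border genes rose at 10 of 26 and fell at 1 (ENPEP, near background), with a median of 0.11. ANPEP, aminopeptidase N, read 7.49, 7.35 and 7.63 against 11.01, 11.18 and 10.95 (3.55, SE 0.139, at least 3.29 past background), CDHR5, which links microvilli, rose by 3.42 and VIL1, the microvillus actin bundler, by 1.14. Transporters rose at 11 of 21 and fell at 0, led by the glucose carrier SLC2A2 (3.91, SE 0.159, at least 3.59 past background) and the fructose carrier SLC2A5 (3.74, SE 0.325, at least 0.43 past background). Xenobiotic genes rose at 12 of 19, led by the glutathione transferase GSTA1 (2.78, at least 2.33) and CYP3A5 (2.25), and fell at 3. Intestinal transcription factors rose at 4 of 18, led by PPARG (1.53), and fell at 3, led by HOXB13 (-1.45), both near background, against 12.9% higher and 14.0% lower among all genes. Goblet and mucosal genes rose at 4 of 28 (AGR2, ZG16, MUC13 and TFF3) and fell at 2 (SPINK1 and DUOX2), no larger part than among all genes for the falls and about the same for the rises. Enteroendocrine genes fell at 3 of 16 (CHGB, RFX6 and SCG2), all near background, and rose at 0. SCG2 lost its call when any array but parental replicate 2 was left out (adjusted p with limma 0.0579 to 0.131).

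**Figure D4:**
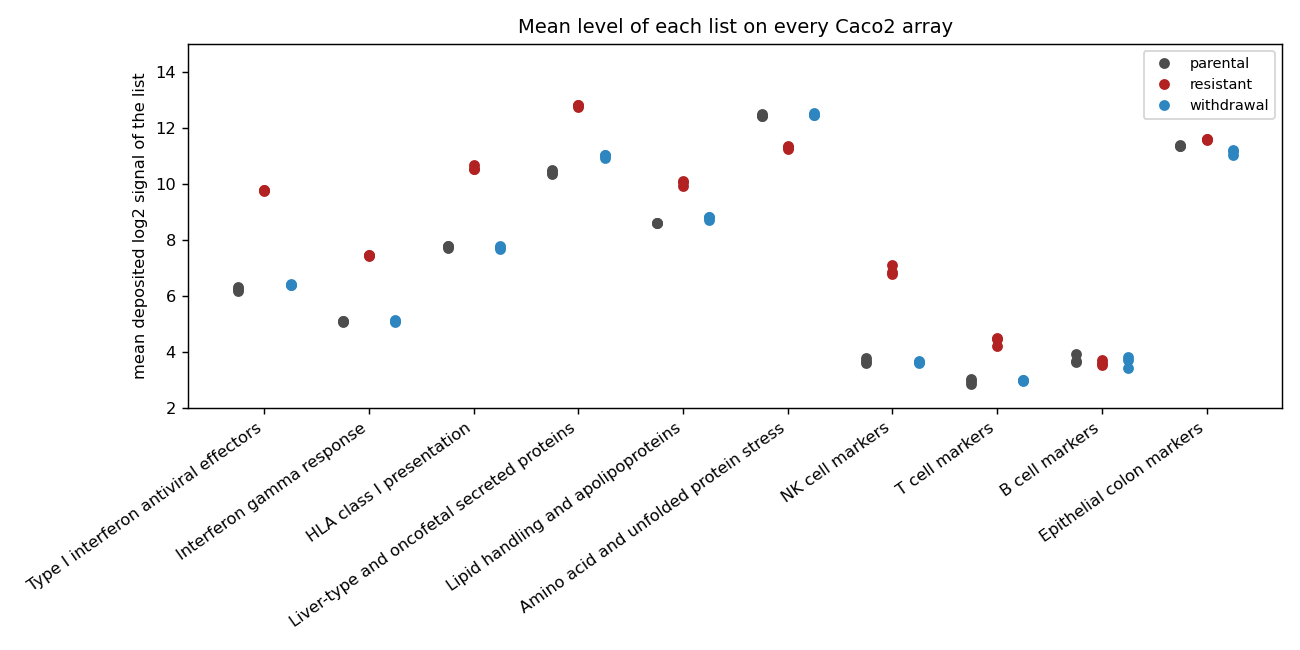
Mean deposited log2 signal of gene lists on each Caco2 array, a point per array. Type I interferon effectors lie at 9.76 to 9.79 on resistant arrays against 6.19 to 6.31 on parental arrays, and amino acid and unfolded protein stress genes at 11.25 to 11.36 against 12.41 to 12.48.

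Genes of the amino acid and unfolded protein stress response, many of which ATF4 drives when amino acids are scarce, fell at 17 of 23 and rose at 4 (median -1.20). All 23 were above background in parental cells. SLC7A11, the cystine importer that feeds glutathione synthesis, read 14.39, 14.20 and 14.13 in parental, 9.83, 10.33 and 9.48 in resistant and 13.90, 14.05 and 13.93 in withdrawal cells (-4.36, SE 0.195, adjusted p = 2.72e-07 with limma). DDIT4, an inhibitor of the growth regulator mTORC1, read 11.77, 11.87 and 12.02 against 9.13, 8.53 and 8.62 (-3.13, SE 0.165). The resistant arrays of both genes lay below every parental array.

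SESN2, another stress-induced inhibitor of mTORC1, fell by 3.07 (at least 1.40), CHAC1, which degrades glutathione, by 2.95, and STC2, a secreted glycoprotein, by 2.27. The genes that rose were ATF3 (1.29), SDF2L1 (0.79), HERPUD1 (0.49) and HSPA5 (0.50), of which the last 3 encode proteins of the endoplasmic reticulum and all 4 were chosen after their values were seen. The mean level of the list was 12.41 to 12.48 on parental, 11.25 to 11.36 on resistant and 12.45 to 12.55 on withdrawal arrays.

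Lists of growth and structure moved in both directions. Cell cycle genes rose at 2 of 27 and fell at 5, led by the nucleotide reductase subunit RRM2 (0.78) and the kinase CDK1 (-0.62), and MKI67, a proliferation marker, changed by 0.19 (adjusted p with limma 0.226). All 27 were above background, where 18.9% of genes rose and 21.9% fell, so these counts do not stand above the background. Without parental replicate 1 the cell cycle genes that fell numbered 3. In the p53 list 3 of 15 rose and 1 fell, against 12.9% higher and 14.0% lower among all genes. Of the 15, 11 were above background in parental cells, where the shares are the larger ones given above. CDKN1A, a cell cycle inhibitor, read 5.47, 5.16 and 5.66 against 8.69, 9.59 and 8.99 (3.66, SE 0.248, at least 1.34 past background), TP53I3 rose by 1.52 and ZMAT3 fell by 1.92 (at least 0.18). WNT and stem cell genes rose at 8 of 19, led by the feedback inhibitor NKD1 (1.37), and fell at 4, or at 5 to 7 and 2 to 3 with 1 Caco2 array left out. LEF1, a transcription factor of the WNT pathway, read 10.21, 10.41 and 10.31 against 6.67, 6.81 and 7.47 (-3.32, SE 0.215), at least 2.42 down to background.

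Hypoxia and glycolysis genes rose at 10 of 18, led by NDRG1 (1.81), and fell at 4, with 6 rising without parental replicate 3. Genes of the NRF2 and detoxification list rose at 8 of 18, led by the aldehyde dehydrogenase ALDH1A1 (2.00). They fell at 3, led by SLC7A11, or at 1 without parental replicate 3. Cholesterol synthesis genes rose at 7 of 15, led by INSIG1 (1.71), and fell at 2, or at 4 to 6 and 0 to 2 with 1 array left out. The metallothionein list fell at 5 of 10 genes, led by MT1X (-1.96), while MT2A rose by 1.12. The 5 include SLC39A10 (-1.19), a zinc transporter and not a metallothionein. These and the next 5 lists are to be read against 12.9% of all genes higher and 14.0% lower. Among genes above background in either group the shares were 18.9% and 21.9%. In parental cells 19 of 23 junction genes and all 5 ribosomal proteins were above background. Junction genes rose at 5 and fell at 5 of 23. In the mesenchymal list 4 of 26 rose and 4 fell, among them the matrix protein SPARC (-2.36, near background) and the filament protein VIM (-2.27). Integrins and laminins rose at 3 of 14, led by ITGB4 (1.67, at least 1.62), and fell at 4, or at 2 to 3 with 1 array left out. Keratins fell at 1 of 10 (KRT23) and ribosomal proteins at 1 of 5 (RPS6), and neither list held a gene that rose. Without resistant replicate 3, 4 of the 5 ribosomal proteins fell.

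The genes with the largest falls have varied known roles. VCAN, the matrix proteoglycan versican, read 13.71, 13.72 and 13.74 on parental, 4.53, 6.13 and 6.05 on resistant and 13.02, 12.91 and 13.02 on withdrawal arrays. Its change was -8.15 (SE 0.352, adjusted p = 2.2e-07 with limma), at least 5.84 down to background. GABRA3, a subunit of the GABA receptor, read 10.89, 10.82 and 11.03 in parental, 3.42, 4.45 and 3.53 in resistant and 12.87, 13.22 and 13.17 in withdrawal cells (-7.11, SE 0.245, at least 3.03 down to background). The withdrawal arrays of VCAN lay just below the parental ones, and those of GABRA3 lay above them.

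WLS, which carries WNT proteins to the surface, read 11.61, 11.58 and 11.55 against 4.83, 4.72 and 5.82 (-6.46, SE 0.247, at least 3.70 down to background), with 10.80, 10.71 and 10.78 after withdrawal. MGST1, a membrane glutathione transferase, read 11.08, 11.24 and 11.17 against 5.45, 4.48 and 5.34 (-6.07, SE 0.242, at least 3.28 down to background), with 5.86, 6.02 and 6.36 after withdrawal. The withdrawal arrays of WLS lay near the parental ones and those of MGST1 below background. RBMS3, an RNA-binding protein, fell by 6.69 (at least 1.61), NIBAN1 by 5.70 (at least 2.64), PLOD2, which hydroxylates collagen lysines, by 5.32 (at least 3.92), LRP2, the endocytic receptor megalin, by 5.06 (at least 4.27) and the kinase gene STK32B by 4.98 (at least 0.86). NCKAP5 fell by 5.21 (at least 0.03) from 7.53 to 8.32 on parental arrays, close to the background limit.

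Part of the changes were shared with the other lines. In LIM1215, 5.42% of genes were higher and 5.39% lower after resistance, and in SW48 10.9% and 11.8%. These calls come from a fit on all 27 arrays, LIM1215 parental replicate 3 included, and the Caco2 calls from the 9 Caco2 arrays. Of the 2274 genes higher in Caco2, 384 were also higher in LIM1215 (16.9% of the Caco2 and 40.0% of the LIM1215 calls) and 558 in SW48 (24.5% and 28.9%). Of the 2482 lower genes, 219 were lower in LIM1215 (8.82% of the Caco2 and 22.96% of the LIM1215 calls) and 535 in SW48 (21.6% and 25.7%). In all 3 lines 161 genes were higher and 49 lower. Tested directly, the Caco2 change differed from the LIM1215 change at 3760 genes (21.3%) and from the SW48 change at 4575 (25.9%). LIM1215 parental replicate 3 stands apart from its group, with high interferon genes, and without it 4255 genes differed from LIM1215.

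The median change of type I interferon effectors was 3.11 in Caco2, 0.50 in LIM1215 (1.31 without parental replicate 3) and 0.65 in SW48. The Caco2 change was higher than that of LIM1215 at 28 of 49 of these genes (32 without that array), against 10.8% of all genes, and higher than that of SW48 at 28, against 13.0%. It was lower at 1 (7 without that array) and 0, against 10.4% and 12.9% of all genes. The SW48 counts use a spread taken from all 27 arrays, LIM1215 parental replicate 3 among them, and are given only with it. The median change of NK markers was 2.67 in Caco2, 3.45 in LIM1215 (3.37 without that array) and 1.32 in SW48. The Caco2 change of NK markers was higher at 5 and lower at 7 of 32 genes against LIM1215, and higher at 17 and lower at 2 against SW48.

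The liver-type proteins, with a median change of 1.98 in Caco2, had medians of -0.07 in LIM1215 and -0.09 in SW48, and the Caco2 change was higher at 18 and 17 of 20 genes. MICB changed by 2.26 in LIM1215 and 1.66 in SW48 against -2.14 in Caco2 (adjusted p of the differences with limma 6.82e-11 and 6.63e-10). SERPINB9 changed by -2.38 and 0.71 against 3.06 in Caco2 (adjusted p with limma 9.17e-12 and 3.36e-06). EGFR changed by -0.13 in LIM1215 and -2.26 in SW48, and both differed from the Caco2 change of -1.19 (adjusted p with limma 0.000244 and 0.000169).

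Changes in Caco2 were also grouped along chromosomes, a pattern examined after the data were seen and given without a test. Only genes above background in either group were used, and 8498 of these 8502 could be placed by their order in RefSeq. Over all 8502, 18.9% were higher and 21.9% lower. On chromosome X, 138 of 273 genes (50.5%) were higher and 65 (23.8%) lower, with a median of 0.46 against 0.01 in LIM1215 and 0.05 in SW48. On chromosome 5, 163 of 392 genes (41.6%) were lower and 38 higher, and on chromosome 7 171 of 419 (40.8%) were lower and 32 higher.

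Chromosome X was not uniform. Its stretches below, like those of other chromosomes, were picked by the running median of these same changes. Their ends were set at called genes of the same direction. The shares of rising or falling genes in them therefore follow in part from that choice. From TCEAL8 to RTL8B, 44 of 61 genes rose and 9 fell (median 1.10), and XIAP lies in that stretch. From MTMR1 to VAMP7, 23 of 28 genes fell and 1 rose (median -1.03), and GABRA3 lies in it. From SH3BGRL to ARMCX5, 15 of 19 genes fell and 3 rose. In withdrawal cells, whose difference uses the same parental arrays, the median difference from parental cells on chromosome X was 0.58. There 96.3% of the 273 genes read above their parental mean, against 9.07% (chromosome 7) to 58.4% (chromosome 5) on the other chromosomes. On chromosome 7 the median difference of withdrawal from parental cells was -0.35.

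**Figure D5:**
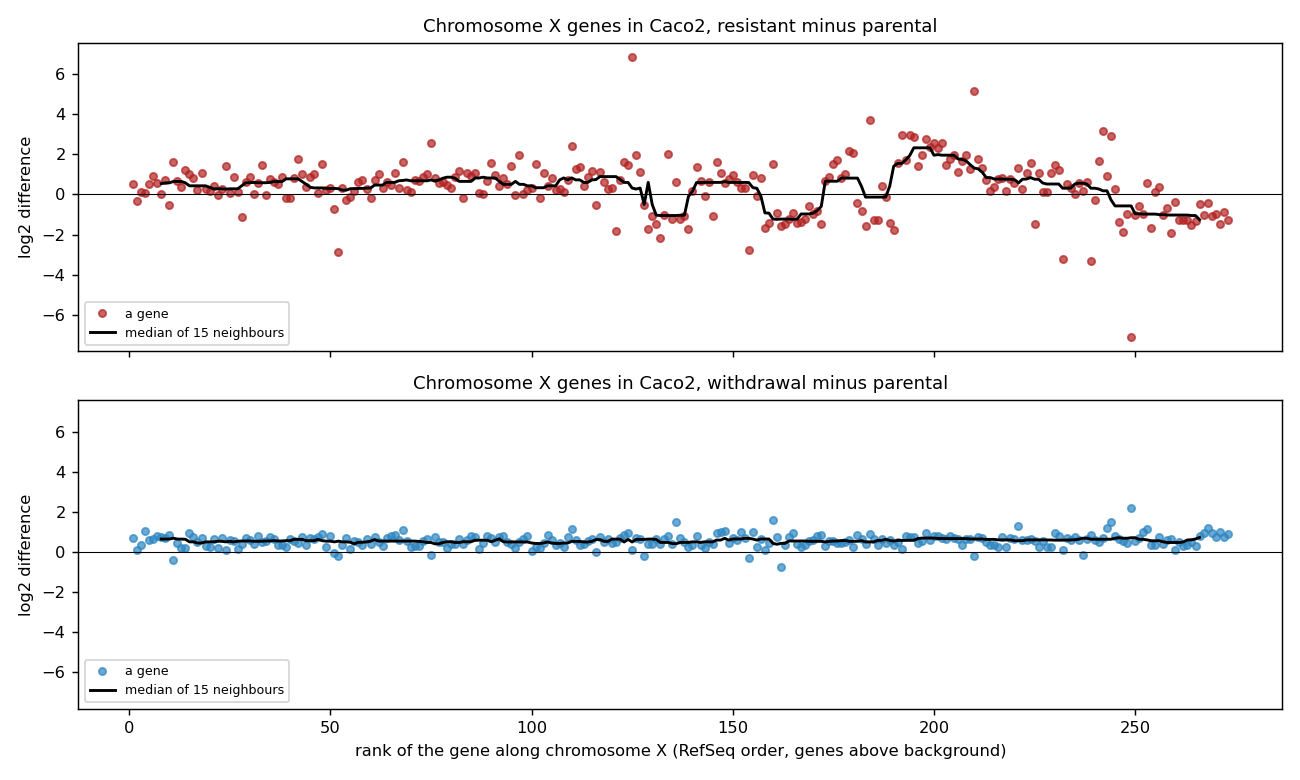
Log2 difference of the 273 chromosome X genes above background in Caco2, resistant minus parental (top) and withdrawal minus parental (bottom), in RefSeq gene order, with the running median of 15 neighbours as a line. Resistant cells show stretches above and below 0, withdrawal cells lie around a median of 0.58, and both panels use the same 3 parental arrays.

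Stretches in which the median of 15 neighbouring genes was at least 0.75 above or below 0 numbered 16 on 7 chromosomes and held 411 genes. On chromosome 5, the stretch from ARSB to RHOBTB3 held VCAN, and 21 of its 25 genes fell and 0 rose, with a median of -0.99 in resistant and -0.04 in withdrawal minus parental cells. On chromosome 1, 25 of 33 genes from ZNF593 to PTP4A2 fell, among them SESN2, while IFI6, in the same stretch, rose. On chromosome 6, 9 of 16 genes from C2 to TAPBP rose, among them TAP1, TAP2 and PSMB9. Of the 20 genes with the largest changes, 3 (IFI6, VCAN and GABRA3) lie in such stretches. DNA was not measured.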

How the data were processed

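RNA of cell pellets of 3 colorectal cancer lines was hybridised to 27 Affymetrix arrays, 3 per group, and arrays were grouped by their titles. The deposited values were read as log2 signal: how the authors normalized them, with which software and build, is not given in the sources used here. The log base was taken from the size of the values, and the deposited maxima above 16 show a further transformation by the authors. Quartiles differed between lines, so levels were compared only within a line. Of 24351 probe sets, 21448 measured transcripts, and 17709 were named through the platform's Entrez identifiers matched to RefSeq, giving 17687 genes (the brightest probe set was used for 20 genes).

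Differences in Caco2 were tested with limma 3.58.1 in R 4.3.3 (lmFit and eBayes, two-sided) on the 9 Caco2 arrays. Changes in the other lines and differences between lines were tested on all 27. Benjamini-Hochberg adjustment was over all genes. The procedure was tested on simulated data. Tables and plots were made with Python 3.11.15, pandas 2.3.3 and matplotlib 3.10.9. Genes named are the 10 largest called changes in each direction with groups apart and above background, the 5 largest called members of each gene list and a set of ligand, receptor and line marker genes. Names outside that rule were chosen after their values were seen, also where the text does not repeat it (CLEC2B, CXCL5, ENPEP, FOSL1, IL2RG, NECTIN3 and SPINK1). The comparison and its lists were chosen with earlier results of these data known. Alternatives were other sets of arrays, normalizations, filters, spread models, probe set rules, a replicate block and leaving out each array.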

Additional observations from a re-analysis of the deposited data

Results flagged for a closer look

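The change of most of the 20 leading genes and of EGFR differed between Caco2 and another line by limma's interaction test (adjusted p under 0.05). Each value is the Caco2 change minus the other line's change in log2 units. All 20 leading genes were below background in the lower Caco2 group, so the sizes are differences of deposited values and not measured ones. Measured to the background limit, the Caco2 rise was at least 4.87 for IFIT1 and 6.05 for IFI6. Among the genes with the largest rises, IFIT1 differed by 9.41 from LIM1215 and 7.23 from SW48, and IFI6 by 8.16 and 5.12. CCL3 differed by 1.05 and 4.11, OAS2 by 5.54 and 6.71, IFITM1 by 6.95 and 3.49, OAS1 by 7.17 and 3.28, and C3 by 6.84 and 7.21. XAF1 differed from SW48 by 5.28 and APOL1 from LIM1215 by 5.48.

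The LIM1215 values rest in part on LIM1215 parental replicate 3, which stands apart from its group. Without it the differences from LIM1215 were 7.19 for IFIT1, 7.14 for IFI6, 3.22 for OAS2, 6.75 for IFITM1, 6.23 for OAS1 and 0.92 for CCL3.

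Among the genes with the largest falls, VCAN differed by -7.76 from LIM1215 and -7.95 from SW48, GABRA3 by -6.68 and -7.35, and RBMS3 by -6.45 and -6.84. WLS differed by -6.80 and -4.33, MGST1 by -6.52 and -6.29, PLOD2 by -5.93 and -4.66, and NCKAP5 by -5.11 and -5.09. LRP2 differed by -4.99 and -4.92, STK32B by -5.08 and -5.22, and NIBAN1 from LIM1215 by -7.34. EGFR differed by -1.06 from LIM1215 and by 1.07 from SW48, so its change in Caco2 lay between the changes in the other lines.

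Outside the named genes, 428 transcript probe sets without a gene name passed the test in Caco2 and were above background. They are part of 3739 unnamed transcript probe sets, of which 260 were higher and 367 lower in resistant cells.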

How the results depend on the processing

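The count of genes that differed in Caco2 was 3872 to 4486 when 1 array was left out and 4124 to 5442 under the other alternatives, against 4756. Of the 4756 genes, 3399 were also called under the filter on dim genes, which made 4204 calls, and 4014 when the withdrawal arrays were left out. The counts for the differences from LIM1215 and SW48 were 3365 to 4255 and 4147 to 4366 with 1 array left out, and 2834 to 4022 and 4329 to 4786 under the other alternatives. Replicate numbers did not pair the samples (deviations of same-numbered parental and resistant arrays correlated with r of 0.018, -0.005 and 0.049). With the replicate number as a block 4420 genes were called, 4261 of them among the 4756, and 3640 and 4402 differed from LIM1215 and SW48.

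Of 202 named genes, 186 stayed on their side of the threshold in all 17 alternatives, among them the 20 leading genes, and no change reversed. The other 16 were ALDOC, ANKRD37, CARD16, CD274, CIITA, EGLN3, ERBB3, ERRFI1, GSDMD, ITGB6, KRT23, LSS, NSDHL, PECAM1, SCG2 and SMOC2; the cause was not tested. Without LIM1215 parental replicate 1 the difference of XAF1 from LIM1215 passed (3.80), and without Caco2 resistant replicate 3 that of APOL1 from SW48 passed (1.20). Leaving out 1 array moved a list's count by over 1.5 times also for inhibitory ligands lower and NF-kappaB genes lower (2 without parental replicate 2 and parental replicate 1), brush border genes lower (2 without withdrawal replicate 2 or 3) and metallothioneins higher (2 without resistant replicate 2). Values below the background limit have no interpretable size.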

Other observations

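The genes below belong to no list and were picked because they were high in resistant Caco2 cells, so they say nothing of other genes of their kind. Among genes that cells switch on soon after a stimulus, the differences were 2.46 for FOS, 2.50 for JUN, 2.93 for JUNB, 4.27 for EGR3, 3.22 for ZFP36, 2.88 for NR4A1 and 2.30 for DUSP1, and all passed with limma. JUN read 11.51 in parental, 12.56 in withdrawal and 14.01 in resistant cells on average, so its withdrawal mean lay between the other means. In LIM1215 and SW48 the change was -0.10 and -0.38 for FOS and 0.51 and 0.07 for JUN.

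Some genes known from liver were picked in the same way. MAT1A, which makes S-adenosylmethionine in liver, read 4.48 in parental and 9.48 in resistant cells on average, the alcohol dehydrogenase ADH4 differed by 4.96, and MBL2, a lectin that activates complement, by 4.34. The bile acid carrier SLC10A1 differed by 3.23, the asialoglycoprotein receptor subunit ASGR1 by 3.01 and ITIH2 by 2.53. Of these 13 genes EGR3, MAT1A, ADH4, MBL2, SLC10A1 and ASGR1 were below background in parental cells, and to the limit they differed by at least 0.95, 1.73, 2.11, 1.21, 1.75 and 1.81, in that order. In LIM1215 and SW48 the change of ADH4 was -0.23 and -0.21 and that of MBL2 -0.19 and 0.01.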
